A study of Arabidopsis thaliana with 24 samples.

Results

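The transcriptional response of WT Arabidopsis roots to sulfur deficit was described from 6 of the 24 arrays of the series. These were the 3 arrays of Col-0 roots labelled low sulphate (-S) and the 3 arrays of Col-0 roots without that label, which were read as grown in normal sulfur supply (nS). Plants were 33 days old, and the -S plants had spent 4 days in the -S condition. Each array held biotin-labelled RNA of one biological replicate on the Affymetrix Arabidopsis Gene 1.1 ST chip. The other 18 arrays were WT shoots and the shoots and roots of OX7.5, each in nS and -S. OX7.5 is one transgenic line that carries an additional copy of NBR1, a selective autophagy cargo receptor, under the constitutive double 35S promoter. It entered here only as a second set of roots, and the WT shoots only as a second organ. Labels mention pots of soil whereas the methods describe hydroponic culture. The platform annotation gave 16554 genes a probe set that names no other gene, and 1804 of them carried a symbol other than their locus number. NBR1 itself was not analysed here.

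Roots take up sulfate through plasma membrane transporters. It is activated by ATP sulfurylase, reduced to sulfite and then to sulfide, and built into cysteine, from which methionine, glutathione, iron-sulfur clusters and, in Arabidopsis and its relatives, glucosinolates are made. A plant short of sulfate is known to raise sulfate uptake and reduction, to slow the synthesis of glucosinolates and to break down those it has stored. Glutathione, the main thiol of the cell, falls, and with it the capacity to detoxify reactive compounds. Autophagy, the delivery of cell contents to the vacuole for breakdown, is one route by which sulfur in proteins can be used again.

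The 6 arrays of WT roots separated by sulfur supply. Pearson correlation over the 16554 genes was 0.973 to 0.984 among the nS arrays and 0.988 to 0.990 among the -S arrays. It was 0.930 to 0.954 between arrays of the 2 conditions. Replicate 1 of nS stood apart. Its deviations from the mean of its group had an SD of 0.261 on the log2 scale, against 0.212 and 0.216 for the other nS arrays and 0.156 to 0.175 for the -S arrays. Without that array, 1218 (79.9%) of the genes called higher and 906 (76%) of those called lower were still called, and none was called in the other direction. Sample numbers of nS and of -S arrays do not interleave, so a difference in handling, if there was one, cannot be told apart from -S. Genes that mark green tissue were dim, as RCA (rubisco activase) had signals of 1.76 to 2.37 and PRK (phosphoribulokinase) of 0.61 to 1.72 in these arrays, both below the median of the root arrays (2.6). PYK10, an abundant beta-glucosidase of root cells, was at 9.07 to 10.37, and EXPA7, an expansin of root hair cells, at 3.79 to 4.60. In whole roots, fewer cells of a type and less RNA per cell cannot be told apart.

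In WT roots 1524 of 16554 genes (9.21%) were higher and 1192 (7.2%) lower in -S. A gene was called when its Benjamini-Hochberg adjusted p in limma was under 0.05 and its change was at least 1.5-fold, which is 0.585 on the log2 scale. The change was at least 2-fold in 584 of the genes called higher and in 443 of those called lower. It reached 3 on the log2 scale in 46 genes that rose and 19 that fell. The 3 arrays of one condition did not overlap those of the other in 1474 (96.7%) of the higher and 1110 (93.1%) of the lower genes. Over all genes tested, 17% were higher and 18.5% lower without overlap. The median change over all genes was -0.06. The array has no detection calls, and 432 (28.3%) of the genes called higher had an nS mean under the root median, and 480 (40.3%) of the genes called lower had a -S mean under it. For such genes the lower signal may hold little besides background, and the fold change then states the measured ratio of signals only.

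The 25 largest rises, which were chosen by their change and the absence of overlap, ran from 3.76 to 7.24 on the log2 scale with SEs of 0.14 to 0.35. Their nS means were 1.08 to 3.47, and 20 of them lay under the root median in nS. In -S they had means of 5.22 to 9.0. The widest change was that of AT2G41730, a locus known as a marker of mitochondrial stress. Its signals were 1.23, 1.46 and 1.33 in the nS arrays and 8.46, 8.39 and 8.89 in the -S arrays. The -S arrays were brighter by more than the whole spread within either condition, and the fold change was 151 (7.24 on the log2 scale, SE 0.26, adjusted p = 2.5e-16). AT2G04050 followed, with 0.78, 1.1 and 1.87 in nS and 8.19, 8.10 and 8.46 in -S (change 7.0, SE 0.22, adjusted p = 2.3e-17). AT4G12735 had 1.17, 1.90 and 1.26 in nS and 8.21, 8.10 and 8.47 in -S (6.82, SE 0.29, adjusted p = 6.5e-15). These loci went from signals among the dimmest of the root arrays to signals well above the median.

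**Figure D1:**
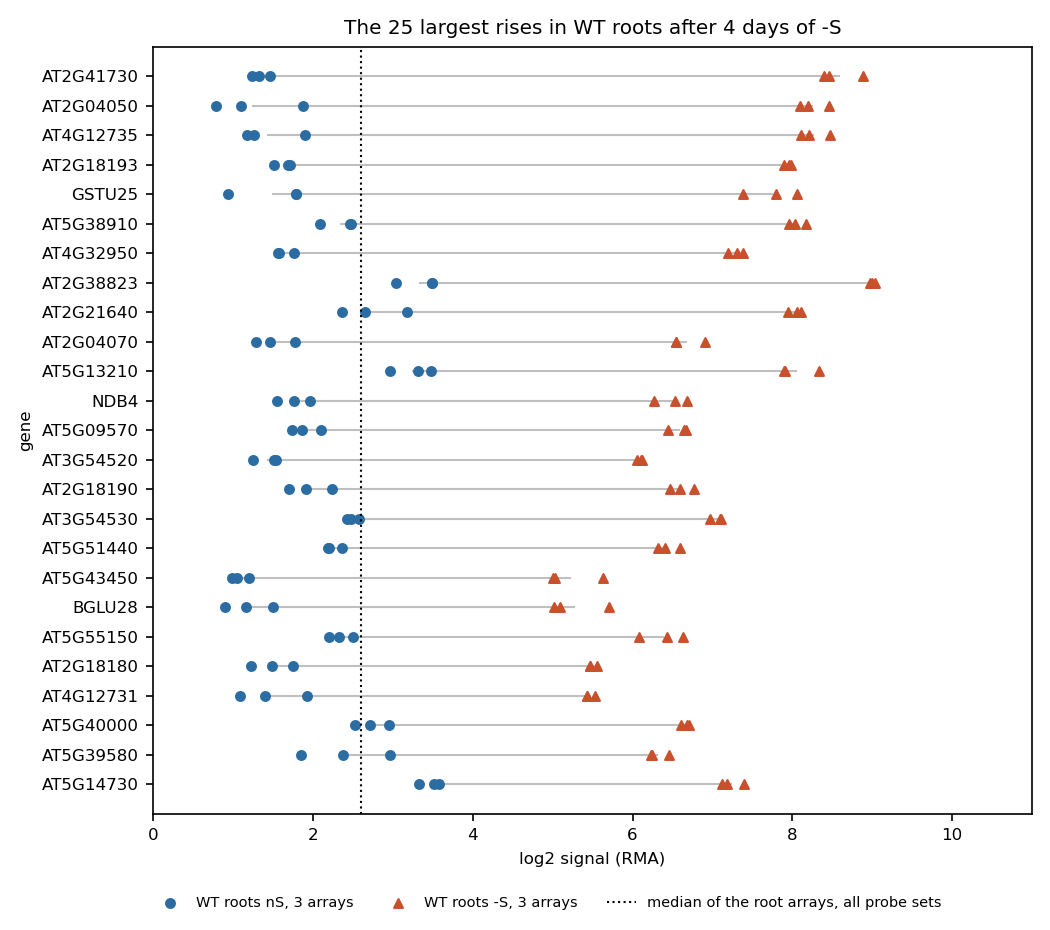
Log2 signal (horizontal axis) of the 25 genes with the largest rise in WT roots, with 3 nS arrays (circles) and 3 -S arrays (triangles) in each row, the difference of the means as a grey line and the median of the root arrays (2.6) as a dotted line. No gene shows overlap between the conditions, by the rule that chose them, and the nS arrays of 20 of the 25 genes average below the dotted line.

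Of the 25 rises only GSTU25, NDB4 and BGLU28 carried a symbol in the annotation. GSTU25 encodes a tau class glutathione S-transferase, an enzyme that joins glutathione to reactive compounds. Its signals were 1.79, 1.79 and 0.93 in nS and 7.80, 7.39 and 8.06 in -S, a 75.8-fold rise (6.24 on the log2 scale, SE 0.24, adjusted p = 5.6e-16). NDB4, an external NAD(P)H dehydrogenase of the mitochondrial inner membrane that passes electrons on without pumping protons, went from 1.96, 1.55 and 1.77 to 6.68, 6.53 and 6.27 (26.6-fold, 4.73 on the log2 scale, SE 0.19, adjusted p = 1.9e-15). BGLU28, a beta-glucosidase counted among the most used markers of sulfur deficit, went from 0.90, 1.50 and 1.16 to 5.02, 5.10 and 5.70 (17-fold, 4.09 on the log2 scale, SE 0.34, adjusted p = 2.3e-09). All 3 were below the root median in nS, and the absence of overlap was part of the rule that chose them. Of 22 measured beta-glucosidases 3 were higher and 1 was lower, beside 9.21% and 7.2% over all genes, with a median change of -0.03. Beside BGLU28, BGLU15 (1.11) and BGLU40 (0.61) were higher, and neither was called without nS replicate 1, while BGLU47 was lower (-1.12, adjusted p = 0.0092).

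The remaining rises included loci with signals close to the bright end. AT2G38823 reached 9.0, 9.04 and 8.97 in -S from 3.49, 3.48 and 3.04 in nS (change 5.67, SE 0.21, adjusted p = 4.1e-16). AT5G38910 reached 7.96, 8.18 and 8.03 from 2.48, 2.09 and 2.46 (5.71, SE 0.18, adjusted p = 2.3e-17). AT4G32950 reached 7.20, 7.30 and 7.38 from 1.57, 1.56 and 1.76 (5.67, SE 0.15, adjusted p = 1.5e-18). The 3 nS arrays and the 3 -S arrays of each were tight, and the difference was many times the SE. The rule that chose these genes, a large change without overlap, favours such a gap. AT2G18180, AT2G18190 and AT2G18193, which follow each other on chromosome 2, rose by 4.01, 4.66 and 6.31. AT2G04050 and AT2G04070, with rises of 7.0 and 5.16, and AT3G54520 and AT3G54530, with 4.66 and 4.57, are likewise close by locus number. The annotated gene model of AT3G54520 overlaps that of another gene, and it was not tested which of them gave the signal.

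Mitochondrial retrograde signalling is the route by which disturbed mitochondria change the expression of nuclear genes. In the list of 18 markers of this response and of oxidative stress, 5 had a probe set of their own and all 5 rose. Beside AT2G41730 and NDB4, these were AT2G21640, AT5G09570 and NDB2. AT2G21640 went from 3.18, 2.65 and 2.36 to 8.05, 7.95 and 8.11 (5.31, SE 0.19, adjusted p = 1.9e-16). AT5G09570 went from 1.74, 1.86 and 2.1 to 6.65, 6.44 and 6.67 (4.68, SE 0.14, adjusted p = 7.7e-18). NDB2, another external NAD(P)H dehydrogenase, was already above the root median in nS. Its signals were 4.23, 3.84 and 4.52 in nS and 7.49, 7.30 and 7.45 in -S (9.29-fold, 3.22 on the log2 scale, SE 0.21, adjusted p = 3e-11). The median change of the list was 4.73 beside -0.06 over all genes. The list was chosen with earlier results of these data known. All its measured members but NDB2 are also among the 25 largest rises, so its count is no separate support. The 4 measured alternative dehydrogenases, a list made after their values had been seen, did not move as one, as NDB3 (-0.26) and NDC1 (-0.22) did not pass the test.

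Further genes with a symbol that act in mitochondria or in glycolysis were named after their values had been seen, and they stand for no group. CYTC-2, one of the cytochrome c genes, went from 4.86, 4.38 and 5.12 to 6.71, 6.51 and 6.52 (1.79, SE 0.18, adjusted p = 4.1e-08). BIGYIN, also called FIS1A, which takes part in the division of mitochondria and peroxisomes, went from 6.07, 5.64 and 5.56 to 7.11, 7.16 and 7.37 (1.45, SE 0.14, adjusted p = 2.2e-08). TPI, the cytosolic triosephosphate isomerase of glycolysis, went from 7.89, 7.90 and 7.88 to 9.07, 9.04 and 8.92 (1.12, SE 0.11, adjusted p = 4.3e-08). TPI was bright in both conditions, and its 2 sets of arrays lay about 1 unit apart with almost no spread in nS.

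Of 14 measured glutathione S-transferases, 2 were higher and 3 lower, beside 9.21% and 7.2% over all genes. Their median change was -0.36, and 6 of the 14 lay under the root median. GSTU22 rose with GSTU25, from 1.19, 0.97 and 1.05 to 4.51, 4.11 and 4.33 (9.49-fold, 3.25 on the log2 scale, SE 0.19, adjusted p = 2.4e-12). GSTU26, the neighbour of GSTU25 on chromosome 1, went the other way, from 6.2, 5.17 and 4.88 to 3.31, 3.33 and 3.46 (-2.05, SE 0.23, adjusted p = 3.1e-07). GSTU28 (-1.03) and GSTU21 (-0.64) were lower as well. ATGSTF13, a phi class enzyme whose symbol kept it off the list, fell from 5.66, 5.94 and 6.04 to 4.46, 3.79 and 3.96 (-1.81, SE 0.22, adjusted p = 7.3e-07). GR1, a glutathione reductase that returns oxidised glutathione to its reduced form, went from 6.04, 6.17 and 6.21 to 7.64, 7.5 and 7.63 (2.74-fold, 1.45 on the log2 scale, SE 0.17, adjusted p = 3.7e-07). ATGSTF13 and GR1 were named after their values had been seen. GSTU25 thus passed from below to well above the root median, while its neighbour lost signal in every -S array. Probes of such related genes can share signal where the sequences are alike.

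UDP-glycosyltransferases attach sugars to hormones, phenolics and foreign compounds. Of 52 measured, 7 were higher and 5 lower, beside 9.21% and 7.2% over all genes, and 38 of the 52 lay under the root median, where a fall is hard to see. The 7 included UGT73B2 (2.00), UGT73B3 (0.88), UGT73B4 and UGT73B5 (0.61), members of the subfamily that glucosylates flavonols and is known to respond to stress. UGT73B1 of the same subfamily was measured and not called. UGT73B4 went from 1.55, 1.46 and 1.81 to 4.66, 4.94 and 5.16 (3.31, SE 0.29, adjusted p = 6e-09). UGT87A2 went from 1.78, 2.16 and 2.73 to 5.30, 4.97 and 5.60 (3.06, SE 0.25, adjusted p = 1.4e-09). Both were clear of overlap by more than 2 units. UGT72E2, which glucosylates monolignols, was lower at 4.18, 4.18 and 4.32 against 5.46, 5.46 and 5.59 in nS (-1.28, SE 0.17, adjusted p = 4e-06). UGT72E1 was also called lower (-1.23, adjusted p = 0.0038), although its arrays overlapped, with 7.90, 6.84 and 6.32 in nS and 5.75, 5.26 and 6.37 in -S. Without nS replicate 1, 5 glycosyltransferases were called higher and 3 lower.

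Phenylpropanoid enzymes and related oxidases with a symbol, most of them named after their values had been seen, stand here for no group. PRX52, a class III peroxidase with a role in lignification, went from 3.2, 3.15 and 2.35 to 5.84, 5.83 and 6.74 (3.24, SE 0.31, adjusted p = 1.8e-08). CCR2, a cinnamoyl-CoA reductase induced in defence, went from 3.58, 3.54 and 3.78 to 5.75, 5.57 and 6.09 (2.18, SE 0.19, adjusted p = 7.3e-09). FMO, a flavin monooxygenase at AT1G12200, went from 4.22, 3.75 and 3.52 to 7.31, 7.17 and 6.43 (3.14, SE 0.24, adjusted p = 6.1e-10). ALDH2C4, the aldehyde dehydrogenase that makes ferulate and sinapate, fell from 8.27, 8.24 and 8.26 to 7.16, 7.25 and 7.33 (-1.01, SE 0.15, adjusted p = 1.2e-05). The -S arrays of PRX52, CCR2 and FMO lay above all nS arrays, and those of ALDH2C4 below them. Of 25 cytochromes P450, most of them of the CYP71B subfamily, 1 was higher and 2 were lower, beside 9.21% and 7.2% over all genes. Those lower were CYP71B26 (-2.08) and CYP71B34 (-1.23). The 1 that was higher, CYP71B6, was not called without nS replicate 1.

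Few genes of sulfate metabolism could be read. None of 12 sulfate transporters and 3 of 24 genes of sulfate assimilation and of cysteine and glutathione synthesis had a probe set of their own. The 3 split. APS3, an ATP sulfurylase, was at 2.56, 2.43 and 2.87 in nS and 3.03, 4.13 and 3.78 in -S (1.03, SE 0.25, adjusted p = 0.0037). APS4, another ATP sulfurylase, was at 5.58, 5.43 and 5.47 in nS and 4.78, 4.49 and 4.79 in -S (-0.81, SE 0.17, adjusted p = 0.00073). SIR, the sulfite reductase, was at 7.90, 7.84 and 7.94 in nS and 7.56, 7.60 and 7.60 in -S. Its difference of -0.30 (SE 0.13) did not pass the test (adjusted p = 0.11), although the arrays did not overlap. The 2 ATP sulfurylases thus went in opposite directions.

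Of 11 markers of sulfur deficit, BGLU28 and AT1G04770 were measured. AT1G04770 was at 5.11, 5.09 and 5.07 in nS and 5.36, 5.36 and 5.61 in -S. Its difference of 0.35 (SE 0.19) missed the test (adjusted p = 0.2), and the change was 1.0 in roots of OX7.5 (adjusted p = 0.00028). The difference between the lines (0.65, SE 0.26) did not pass its own test (adjusted p = 0.43). SUFE2, which activates the cysteine desulfurase of plastid iron-sulfur cluster assembly and was named after its values had been seen, went from 0.98, 0.67 and 1.0 to 1.94, 2.29 and 2.64 (1.41, SE 0.18, adjusted p = 1.5e-06), with all but 1 array below the root median.

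No measured gene of glucosinolate synthesis was called higher. Of 35 genes of synthesis and regulation, 4 were measured and 2 were lower (7.2% over all genes), with a median change of -0.52. AT2G31790, a glucosyltransferase of the pathway, was at 4.38, 4.51 and 4.87 in nS and 3.97, 3.83 and 3.75 in -S (-0.74, SE 0.17, adjusted p = 0.0017). UGT74B1, another glucosyltransferase of the pathway, differed by -0.59 (adjusted p = 0.011). The glucosinolate transporter GTR2, which is not among these 4 and was named after its values had been seen, also fell. It went from 6.86, 6.63 and 6.97 to 5.94, 5.75 and 5.72 (-1.02, SE 0.16, adjusted p = 2.5e-05). The -S arrays of AT2G31790 and GTR2 lay below every nS array. AOP3 (-0.18) and GSTU20 (-0.45) did not pass.

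PYK10 is the beta-glucosidase of ER bodies, compartments of root cells that store this enzyme apart from the glucosinolates it can cut. Its signals were 9.99, 10.14 and 10.37 in nS and 9.07, 9.24 and 9.25 in -S. All -S arrays were dimmer, but the difference of -0.98 (SE 0.48) did not pass in the fit over all 24 arrays (adjusted p = 0.16). It passed with root arrays only (adjusted p = 0.00043) and with the 6 arrays alone (adjusted p = 0.0021), where its spread in shoots does not enter the SE. NAI2, which is required to form ER bodies, was named after its values had been seen. It fell from 8.94, 8.91 and 9.06 to 7.53, 7.60 and 7.80 (-1.33, SE 0.36, adjusted p = 0.0077). Of 5 measured jacalin-related lectins, a family that includes partners of PYK10, 3 were lower (7.2% over all genes) with a median change of -0.81. JAL34 went from 8.72, 8.74 and 8.78 to 7.16, 7.25 and 7.46 (-1.45, SE 0.25, adjusted p = 0.00011). JAL31 (-1.13) and JAL33 (-0.64, adjusted p = 0.037) were the others. The lectin list was chosen after its values had been seen.

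Most autophagy genes were not called. Of 25 listed, 14 were measured, 3 were higher (9.21% over all genes) and none was lower (7.2%), and the median change was 0.02. The 3 were genes of ATG8, the ubiquitin-like protein that is joined to the lipid of the autophagosome membrane. ATG8E was at 5.46, 5.17 and 4.44 in nS and 6.42, 6.44 and 6.87 in -S (2.93-fold, 1.55 on the log2 scale, SE 0.25, adjusted p = 3.7e-05). ATG8B differed by 0.85 (adjusted p = 0.0065) and ATG8H by 0.82 (adjusted p = 0.017). The arrays of ATG8H overlapped between conditions, with 5.28 in nS replicate 1 and 5.15 in -S replicate 1. APG8A, with 0.60, did not pass (adjusted p = 0.064). Within the ATG8 family the widest rise was thus that of ATG8E, and the arrays of the 2 conditions did not overlap for it. Without nS replicate 1, 4 autophagy genes were called higher.

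Some genes of RNA polymerases and of ribosome assembly were higher. The lists and genes in this paragraph were chosen after their values had been seen. Of 17 subunits of nuclear RNA polymerases, 6 were higher (9.21% over all genes) and none was lower (7.2%), with a median change of 0.28. NRPA1 and NRPA2, the largest subunits of RNA polymerase I, which transcribes the ribosomal RNA genes, led the list. NRPA2 went from 4.86, 5.03 and 5.30 to 6.30, 6.31 and 6.32 (1.24, SE 0.15, adjusted p = 7.3e-07). NRPA1 went from 4.24, 4.69 and 5.03 to 5.72, 5.81 and 5.97 (1.18, SE 0.18, adjusted p = 2.3e-05). For both, every -S array lay above every nS array. The others were NRPB12 (1.02), NRPC2 (0.84), NRPC1 (0.67) and NRPB10 (0.62), some of which are subunits shared between polymerases, and without nS replicate 1 the count was 4 of 17. Among factors that process ribosomal RNA, YAO differed by 1.38 (adjusted p = 3e-06), RRP41L by 1.24 (adjusted p = 9.1e-06), RRP41 by 1.09 (adjusted p = 2.6e-05), AT5G41190, also called NOB1, by 1.07 (adjusted p = 5.5e-06) and AT5G14520, also called PESCADILLO, by 0.86 (adjusted p = 6e-05), whereas RRP45a (0.47) was not called.

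Regulators with a symbol made up a small part of the measured genes, and those outside the WRKY list and the hormone lists were named after their values had been seen. Of 7 WRKY transcription factors, WRKY6 was higher at 6.18, 6.24 and 6.45 against 4.68, 4.62 and 4.87 in nS (change 1.56), and WRKY22 was lower (-0.86, adjusted p = 0.00085). STZ, a zinc finger repressor of stress responses, differed by 1.95, ABR1, a repressor of abscisic acid responses, by 1.74, DREB2C by 1.43, the gibberellin receptor GID1B by 1.34 and BZIP60, a factor of the unfolded protein response, by 1.22. AT5G61590, also called DEWAX, a repressor of wax synthesis, fell from 4.71, 4.30 and 4.65 to 2.59, 2.65 and 2.58 (-1.94, SE 0.16, adjusted p = 1.7e-09). XERICO, which promotes the accumulation of abscisic acid, fell from 5.27, 5.37 and 5.32 to 4.01, 4.22 and 3.82 (-1.30, SE 0.18, adjusted p = 4.2e-06). Of 8 measured auxin response genes and 2 of cytokinin response, none was called. Of 5 genes of the abscisic acid response, COR15A (1.19) and LTI30 (0.78) were higher and COR47 (-0.80) lower. The arrays of COR15A overlapped between conditions, with 4.50, 3.23 and 3.87 in nS and 6.35, 4.15 and 4.67 in -S. Beside the counts of these lists, 9.21% of all genes were called higher and 7.2% lower.

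The 25 largest falls, also chosen by their change and the absence of overlap, ran from -5.03 to -2.70 on the log2 scale with SEs of 0.16 to 0.34. Their nS means were 3.52 to 9.51, and 16 of the 25 fell to a -S mean under the root median. AT2G22122 had 8.18, 7.53 and 7.11 in nS and 2.22, 2.47 and 3.04 in -S, a 32.7-fold fall (-5.03, SE 0.21, adjusted p = 2.4e-15). AT1G70880 had 7.26, 6.83 and 6.77 in nS and 2.13, 2.28 and 2.69 in -S (-4.59, SE 0.21, adjusted p = 1.6e-14). AT4G29905 had 8.05, 7.48 and 7.69 in nS and 3.24, 3.78 and 3.58 in -S (-4.21, SE 0.21, adjusted p = 1.6e-13). All 3 were bright in sulfur-sufficient roots and close to or below the root median after the deficit. AT5G26280 had 9.83, 9.49 and 9.20, and kept 6.22, 6.38 and 6.71 in -S (-3.07, SE 0.22, adjusted p = 1.2e-10). The gene models of AT5G14120, AT3G01260, AT4G00910, AT5G14650, AT2G38600 and AT4G12545, also among these falls, overlap another gene.

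**Figure D2:**
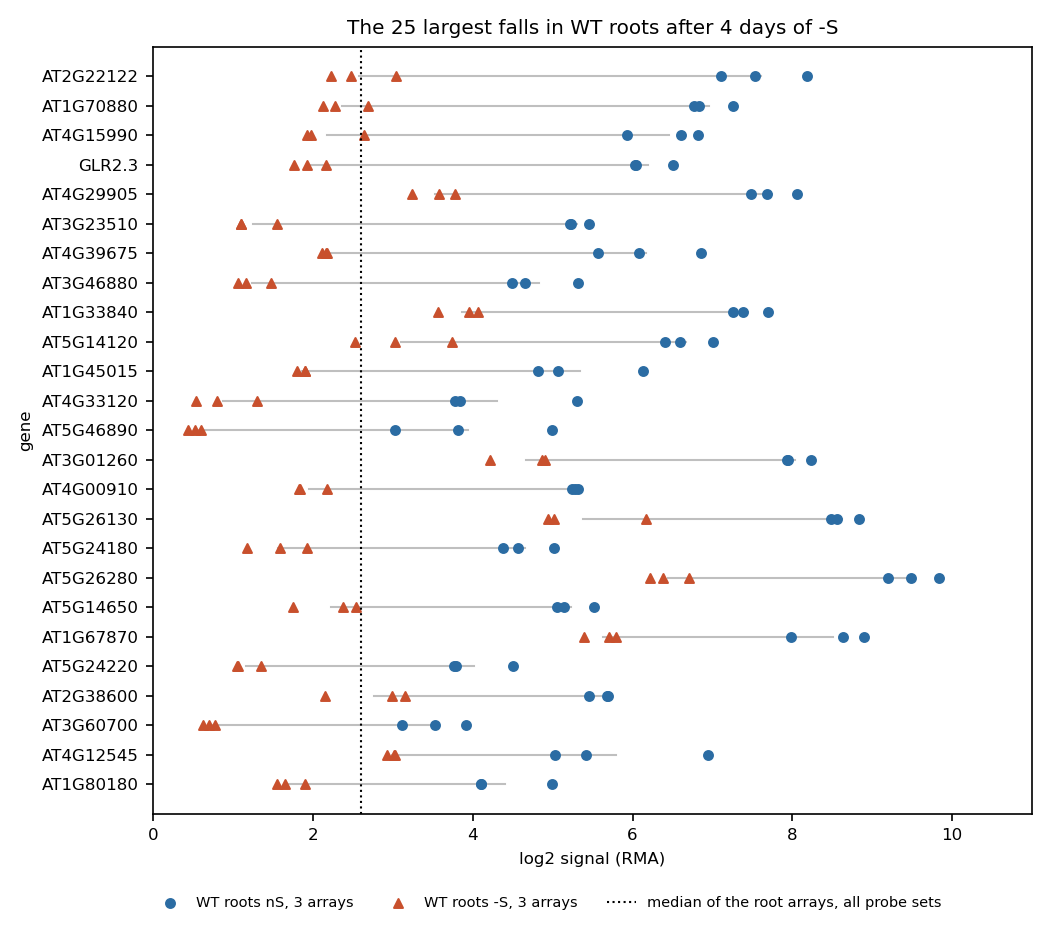
Log2 signal (horizontal axis) of the 25 genes with the largest fall in WT roots, with 3 nS arrays (circles) and 3 -S arrays (triangles) in each row, the difference of the means as a grey line and the median of the root arrays (2.6) as a dotted line. The -S arrays of 16 of the 25 genes average below the dotted line, and no gene shows overlap between the conditions, by the rule that chose them.

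The 1 symbol among the 25 falls was GLR2.3, a glutamate receptor-like gene. Genes of this family encode cation channels of plants that amino acids can open. GLR2.3 went from 6.50, 6.03 and 6.05 to 1.93, 1.76 and 2.16, an 18.9-fold fall (-4.24, SE 0.20, adjusted p = 5.2e-14). GLR2.2, which lies beside it on chromosome 2, went from 6.27, 6.16 and 6.28 to 3.63, 4.13 and 3.51 (5.59-fold, -2.48 on the log2 scale, SE 0.22, adjusted p = 4.8e-09). Every -S array of either gene lay below its nS arrays, and only GLR2.3 fell under the root median. The other 8 of 10 measured family members were not called, and the median of the family was -0.43. Over all genes 7.2% were called lower. Probe sets of this pair may share signal, since the genes are alike.

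The SWEET family of sugar transporters had changes in both directions. SWEET16 and SWEET17, which carry fructose and other sugars across the vacuolar membrane, were the 2 members called lower. SWEET16 went from 5.13, 4.62 and 4.93 to 3.00, 2.61 and 3.23 (-1.95, SE 0.18, adjusted p = 9.9e-09), and SWEET17 from 6.33, 5.92 and 6.09 to 4.65, 4.63 and 4.95 (-1.37, SE 0.19, adjusted p = 4.5e-06). In neither did the conditions overlap. SWEET13 (0.75) and SWEET2 (0.70) were called higher, with adjusted p of 0.018 and 0.036, but the arrays of both overlapped between conditions. SWEET13 was not called without nS replicate 1, which left 1 member higher, and SWEET2 was not called with a replicate block (adjusted p = 0.055). The other 11 of 15 were not called, and 12 of 15 lay under the root median. Over all genes 9.21% were called higher and 7.2% lower.

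Genes of cell wall proteins that act in growth fell more often than they rose. Of 28 expansins and xyloglucan endotransglucosylases, 9 were lower and 1 higher, beside 7.2% and 9.21% over all genes. Their median change was -0.39, and 14 lay under the root median. EXPB3 went from 7.98, 8.32 and 7.63 to 6.79, 6.93 and 5.07 (-1.72, SE 0.36, adjusted p = 0.00088). EXPB2 went from 3.51, 3.9 and 3.99 to 2.59, 2.34 and 1.82 (-1.55, SE 0.19, adjusted p = 8.4e-07). EXPB1 (-1.13), XTH26 (-1.11), EXPA4 (-0.95), EXPA25 (-0.88), XTH21 (-0.85), XTH20 (-0.75) and XTH16 (-0.71) were the others, and EXPA9 (0.73) was the 1 that rose. The same count of 9 was found without nS replicate 1. The root hair expansins EXPA7 (-0.37) and EXPA18 were not called.

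Among beta tubulins and RALF-like peptides, which were also listed after their values had been seen, 3 of 5 and 4 of 18 were lower. None was higher, and over all genes 7.2% were lower and 9.21% higher. TUB6 went from 6.74, 6.40 and 6.56 to 5.56, 5.70 and 5.47 (-0.99, SE 0.14, adjusted p = 8.3e-06). TUB5 differed by -0.90 and TUB1 by -0.64, the latter not called without nS replicate 1. Of the RALF-like genes, which encode secreted peptides that restrain cell expansion, RALFL32 fell by 1.13 and RALFL34 by 0.77, and 14 of the 18 lay under the root median. Without nS replicate 1 the RALF-like count was 2, as RALFL22 and RALFL27 were no longer called. The tubulins were not under it.

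**Figure D3:**
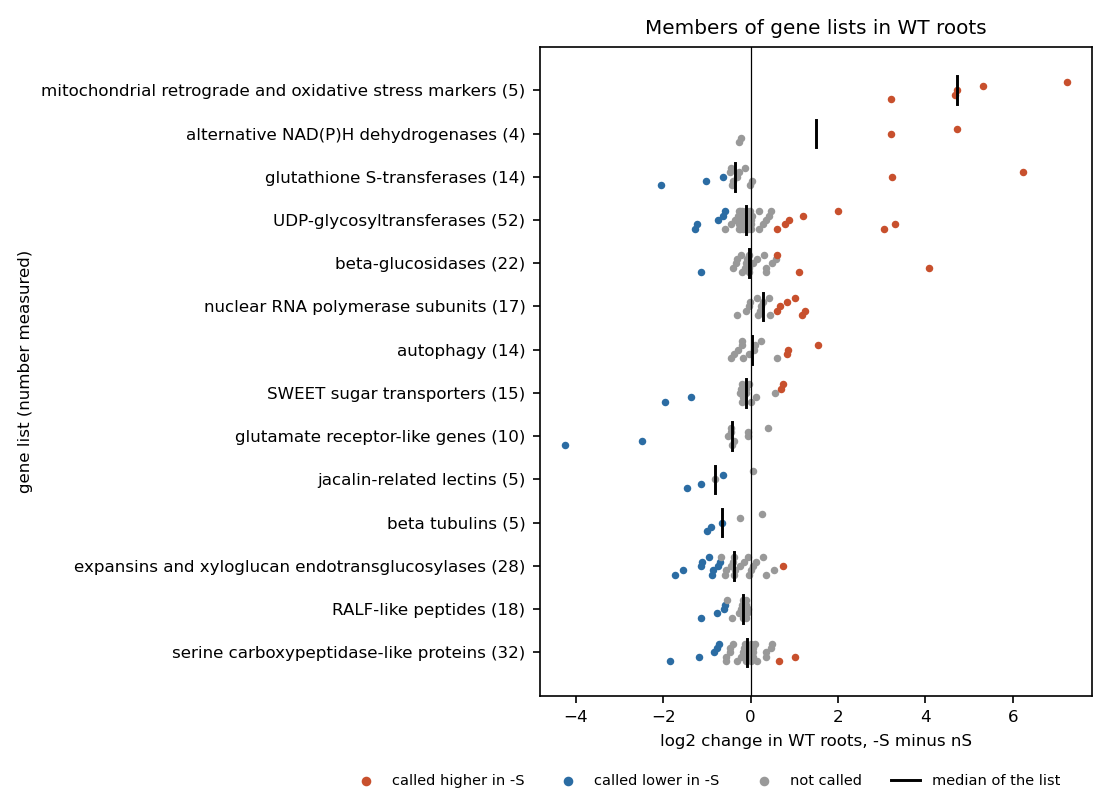
Log2 change in WT roots, -S minus nS (horizontal axis), of every measured member of 14 gene lists, with the number measured in brackets, genes called higher in red, called lower in blue and not called in grey, and the median of each list as a black line. The mitochondrial markers lie at 3.22 and above, whereas the glutathione S-transferases hold both a rise of 6.24 and a fall of 2.05 around a median of -0.36.

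Genes of sulfur-rich and redox proteins were read as well. MT1C, a cysteine-rich metallothionein that binds metal ions, was named after its values had been seen. It went from 9.45, 8.79 and 8.54 to 6.92, 7.11 and 6.93 (3.84-fold, -1.94 on the log2 scale, SE 0.37, adjusted p = 0.00034), with no overlap. Its value was -0.76 in OX7.5 roots, which was not called (adjusted p = 0.17), and 2.56 in WT shoots. Of 6 genes, listed after their values had been seen, for methionine sulfoxide reductases of type B, which repair oxidised methionine, MSRB8 rose from 1.06, 0.93 and 0.71 to 1.83, 2.65 and 2.25 (1.34, SE 0.27, adjusted p = 0.00062). MSRB9 fell from 7.94, 7.79 and 7.70 to 6.73, 6.53 and 7.04 (-1.04, SE 0.30, adjusted p = 0.014), a call that was lost without nS replicate 1. Of 19 measured CC-type glutaredoxins 3 were lower (7.2% over all genes) and none was higher (9.21%). All 19 lay under the root median, and 1 was lower without nS replicate 1.

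Single genes of nitrogen and hormone metabolism were named after their values had been seen, and they stand for no group. PYRB, the aspartate transcarbamoylase of pyrimidine synthesis, went from 3.55, 3.53 and 3.56 to 5.10, 5.15 and 5.73 (1.78, SE 0.17, adjusted p = 2.1e-08). ALN (allantoinase) and UGLYAH (ureidoglycine aminohydrolase), enzymes of purine breakdown, differed by -0.84 (adjusted p = 0.0028) and -0.87 (adjusted p = 5.6e-05). NAXT1, a nitrate excretion transporter, differed by -1.12 (adjusted p = 0.001), and GH3.17, which joins auxin to glutamate, by -1.38 (adjusted p = 0.00015). No gene of the lists of nitrate uptake and reduction, phosphate starvation and jasmonate response had a probe set of its own. Of the markers of iron deficiency 2 were measured and none was called.

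The response of OX7.5 roots, measured on other arrays, had the direction of WT roots for the 50 largest changes. In OX7.5 roots 7.79% of all genes were called higher and 7.1% lower. All 25 of the largest rises of WT roots were called higher in OX7.5 roots, by 3.70 to 7.74, and all 25 of the largest falls were called lower, by 1.73 to 4.16. The genes called higher in both lines numbered 953, which is 62.5% of the WT list and 73.9% of the OX7.5 list. Those called lower in both numbered 699, which is 58.6% and 59.5%. There was 1 gene called in opposite directions. The difference of the responses passed an adjusted p of 0.05 for 10 genes, of which the response was higher in OX7.5 for 6 (0.0362%) and lower for 4 (0.0242%), while 1596 genes had an unadjusted p under 0.05. None of the 50 genes was among the 10. This count turned on single arrays, as it was 0 without WT nS replicate 1, WT -S replicate 2, OX7.5 nS replicate 2 or OX7.5 nS replicate 3, 85 without WT nS replicate 3 and 1 to 21 without any other root array. With root arrays only it was 0. Genes called in WT alone are therefore not shown to differ between lines. UGT72E2, for example, was called in WT roots and had a change of -0.13 in OX7.5 roots, but this difference was not among those called.

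In WT shoots 8.62% of all genes were called higher and 9.42% lower. Of the genes called higher in WT roots 373 (24.5%, and 26.1% of the shoot list) were also higher in shoots, and 68 (4.46%) were lower there. Of the genes called lower 143 (12%, and 9.17% of the shoot list) were also lower, and 98 (8.22%) were higher. The responses of the 2 organs differed at the adjusted p and the fold threshold for 3600 genes, of which 1937 (11.7%) were higher in roots and 1663 (10%) lower, and 1519 of the genes called in roots were among them. Shoot and root arrays did not share a median (3.92 to 3.97 against 2.58 to 2.63), so only the changes and not the levels were compared.

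Of the 25 largest rises 13 were also called higher in shoots and 12 were not. AT2G41730 rose by 4.81 in shoots, AT2G04050 by 4.77, AT4G12735 by 5.32 and AT2G18193 by 3.97. GSTU25 (0.25), BGLU28 (0.15), AT5G09570 (0.24), AT4G32950 (-0.09) and AT2G38823 (-0.57) were not called there. Over all 25 rises, 11 were under the median of the shoot arrays in both conditions. NDB4 rose by 0.89 in shoots and NDB2 by 2.14. Of the 25 largest falls only 3 were called lower in shoots, and 21 were under the shoot median in both conditions. The difference between organs was called for 23 of the rises and all 25 falls. That difference contains the root change by which these genes were chosen, so the choice largely set these counts. Beside them, 11.7% of all genes had a higher response in roots and 10% a lower one. SWEET16 (-1.41) and SWEET17 (-1.31) fell in shoots as well, GLR2.3 (-0.07) and GLR2.2 (0.03) were not called there, and APS4 rose there by 0.91.

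**Figure D4:**
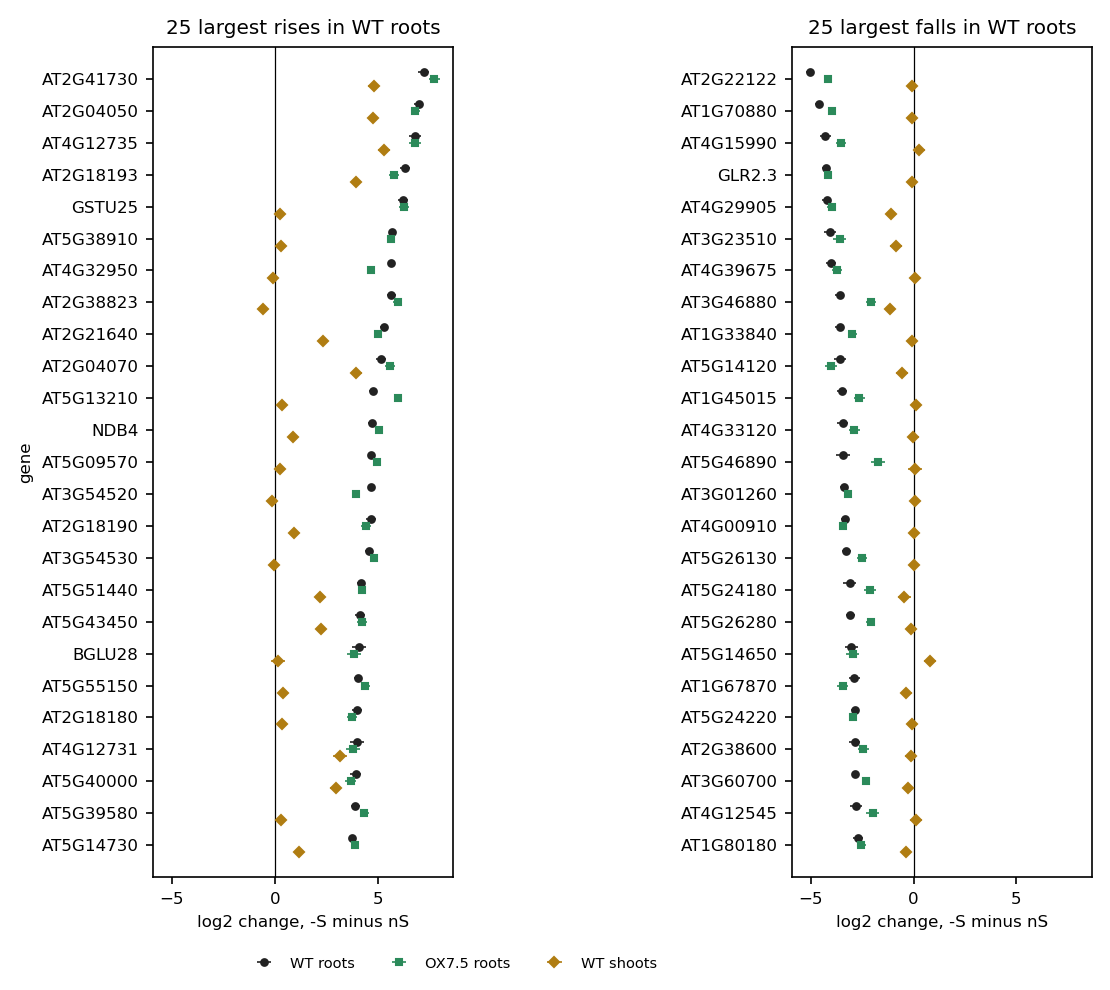
Log2 change, -S minus nS (horizontal axis), with its SE, of the 25 largest rises (left) and the 25 largest falls (right) of WT roots, shown for WT roots (black circles), OX7.5 roots (green squares) and WT shoots (brown diamonds). The OX7.5 roots run from 3.70 to 7.74 on the left and from -4.16 to -1.73 on the right, whereas most shoot values of the falls lie near 0.

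Called genes often lay side by side. Of 1506 nuclear genes called higher, 398 (26.4%) had an adjacent measured gene that was called higher, against 17.3% of all nuclear genes tested. Of 1172 called lower, 233 (19.9%) had an adjacent gene called lower, against 13.7%. Neighbours can be related copies, so their probe sets are not always separate measurements. A run of 7 measured genes, from AT1G13470 to AT1G13520, rose together by 0.74 to 2.92. AT1G13500 was the member with the largest rise, at 3.15, 1.38 and 2.26 in nS and 5.24, 5.28 and 5.05 in -S (2.92, SE 0.27, adjusted p = 1.1e-08). From AT5G52680 to AT5G52720, 5 genes rose by 1.01 to 2.51. AT1G33870, AT1G33880, AT1G33890 and AT1G33900 fell together by 0.95 to 2.53, and AT1G33900 went from 5.43, 5.27 and 5.07 to 2.93, 2.58 and 2.68.

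The longest runs lay in the copy of the mitochondrial genome that chromosome 2 carries near its centromere. Of 47 measured genes there, 33 were higher (9.21% over all genes) and none lower (7.2%), and the median change was 1.13. This list was chosen after its values had been seen. AT2G07721 had the largest change, from 3.41, 4.39 and 4.40 to 6.85, 6.75 and 6.63 (2.68, SE 0.19, adjusted p = 9.7e-11). Averaged over the 47 genes, the nS arrays had signals of 4.99, 5.71 and 5.63 and the -S arrays of 6.50, 6.44 and 6.53. Replicate 1 of nS, the array that stood apart, was the lowest, and without it 31 genes were higher with a median of 0.85. In OX7.5 roots the arrays averaged 5.98, 5.91 and 6.04 in nS and 6.33, 6.45 and 6.48 in -S, with a median change of 0.41. There 13 genes were higher and 2 lower, beside 7.79% and 7.1% of all genes in OX7.5 roots. The probes cannot tell this copy from transcripts of the mitochondrion itself. Another list, of 15 genes with a symbol of the mitochondrial genome, was also made after values had been seen. All 15 changes were above 0 in WT roots, as were those of 7004 of all 16554 genes. Of the 15, 4 were called higher, beside 9.21% over all genes. Their median was 0.43 in WT and -0.01 in OX7.5 roots.

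**Figure D5:**
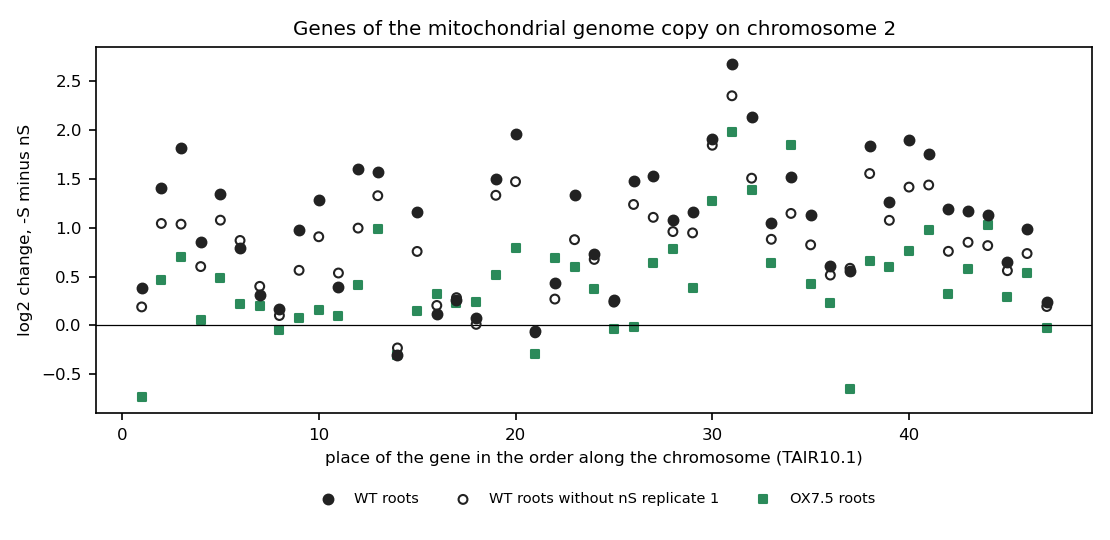
Log2 change, -S minus nS (vertical axis), of 47 genes of the mitochondrial genome copy in their order along chromosome 2 (horizontal axis), for WT roots with all arrays (filled circles), WT roots without nS replicate 1 (open circles) and OX7.5 roots (squares). The WT values have a median of 1.13 with all arrays and 0.85 without that replicate, and the OX7.5 values a median of 0.41.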

How the data were processed

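RNA of 2 organs (shoots, roots) and 2 lines (WT, OX7.5) in nS and -S was measured in 8 groups of 3 replicates, 24 arrays in all. The authors deposited log2 signals per probe set after RMA, and their processing notes name Partek. Versions and settings are not given in the sources used here. No array holds a count of reads, and the number of arrays limits the precision. Of 28583 probe sets, 16746 have 1 gene in the platform annotation, 758 have several and 11079 have none. The probe set with the highest mean was kept per gene, which left 16554 genes, and 16418 of these were matched to the TAIR10.1 gene table.

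Group means were estimated from all 24 arrays in limma 3.58.1 (R 4.3.3) with empirical Bayes moderation and 16 residual degrees of freedom. Adjusted p-values are Benjamini-Hochberg values over all genes. On data simulated for this comparison over 16554 genes, 50 genes were changed at each of several log2 changes. The share called was 100% at a change of 2, 84% at 1, 92% at -1 and 38% at 0.585, which is the fold threshold itself. There were 8 unchanged genes called. In the data 1524 and 1192 genes were called. The adjusted p depends on how many genes change, so the shares need not hold for the data. Same-numbered replicates were checked for pairing. The correlations of their deviations were 0.0018, 0.0108 and -0.0145, so they were not taken as pairs.

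The genes described and the gene lists were chosen with earlier results of these data known. Genes were named by this rule: the 25 largest rises and 25 largest falls without overlap, all measured members of the sulfur lists, up to 4 members of each other list with the largest change, and 4 of each sign for the differences between lines and organs. Single genes with a symbol that belong to no list were named after their values were seen. Lists were described by counts and medians beside all genes. Alternatives covered the arrays in the fit, leaving out each replicate, a replicate block, the probe set per gene, a filter on dim genes, scaling, variance model and thresholds. Promoters and ribosomal protein genes were not analysed here.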

Additional observations from a re-analysis of the deposited data

Results flagged for a closer look

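The -S response of 8 named genes differed between OX7.5 and WT roots at an adjusted p under 0.05 in limma's interaction term, 4 in each direction. The OX7.5 minus WT difference was 1.67 for AT3G14340 (-1.56 in WT and 0.11 in OX7.5 roots), 1.31 for AT2G47150, 1.27 for AT3G20850 and 1.26 for AT5G18850. It was -1.49 for AT2G07708 (1.48 in WT and -0.02 in OX7.5 roots), -1.23 for AT5G66840, -1.21 for AT2G07732 and -1.0 for rbcL. The other 2 genes past this test were AT2G16660 and AT5G40590. AT2G07708 and AT2G07732 belong to the mitochondrial genome copy on chromosome 2, where WT nS replicate 1 was the lowest array, and no gene passed this test without that array.

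The response also differed between roots and shoots of WT. The root minus shoot difference was 6.23 for AT2G38823, 6.0 for GSTU25, 5.75 for AT4G32950 and 5.42 for AT5G38910, which rose in roots and were not called in shoots. It was -4.94 for AT2G22122, which fell in roots and was not called in shoots. It was -4.89 for AT4G22470, -4.77 for AT2G35070 and -4.73 for AT5G50360. These 3 were dim in both conditions in roots, with no array above 1.55, and rose in shoots by 5.09, 4.42 and 4.59.

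Of the 11079 probe sets with no gene in the annotation, 1244 were called higher and 1000 lower in WT roots at the same thresholds. Over the genes tested 9.21% were called higher and 7.2% lower. The called probe sets without a gene have no name here.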

How the results depend on the processing

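All 50 genes with the largest changes kept their direction and their call in each of 696 comparisons with an alternative. Their choice by a large change without overlap made this likely, and it does not extend to other genes. Over all named genes 2889 comparisons kept the call, 86 lost it, 25 gained it, and none turned its direction. The calls of AT2G47870, AT3G62930, petL, psaI, BGLU15, BGLU40, CYP71B6, SWEET13, TUB1, RALFL22, RALFL27, MSRB9, NRPC2 and nad2 were lost without WT nS replicate 1. Of the list counts 915 stayed within 1.5 times and 65 did not.

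At a fold threshold of 2, 584 genes were higher and 443 lower, and with all probe sets tested 2880 and 2252, in both cases because the threshold or the number of features tested was changed. Leaving out one WT root replicate at a time gave 1337 to 1718 genes higher and 1041 to 1318 lower, and 114 to 141 called list members against 135. With the methods' unadjusted p, 1584 and 1270 genes were called, and with the 6 arrays alone 1344 and 1021. Among alternatives chosen after seeing the data, 1491 and 1192 genes were called without the mitochondrial copy and 1465 and 1121 with array weights. For the difference between lines, 10 genes were called in the fit reported, 0 with root arrays only, 19 with an intensity trend, 6 without moderation and 0 to 85 when one array was left out. The cause was not tested. The difference between organs gave 3040 to 3671 genes when one array was left out, against 3600.

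The replicate block gave 1530 genes higher and 1191 lower, 7 for the difference between lines and 3580 between organs, and SWEET2 and JAL33 were no longer called with it. Same-numbered arrays share only a number. Genes under the root median, which 9091 of 16554 were, are read with little signal over background, and a filter on dim genes left 7463 genes with 1290 higher and 865 lower. The analyses of promoter motifs and of ribosomal protein genes were not run.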

Other observations

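Most transcripts of the plastid genome, which roots hold in non-green plastids, were not called. Of 63 measured plastid-encoded genes 1 was higher and 7 were lower in WT roots, beside 9.21% and 7.2% over all genes. Their median change was -0.11. By adjusted p under 0.05 in limma without the fold threshold, 7 were higher and 17 lower, beside 2066 and 1667 of all 16554 genes. The 1 that rose, rpoB, a subunit of the plastid-encoded RNA polymerase, was at 5.68, 6.34 and 6.24 in nS and 6.85, 6.75 and 6.6 in -S (0.65, adjusted p = 0.0012 in limma). The 7 that fell, petL, petN, psaI, psbF, psbM, psbN and psbZ, are short genes of photosynthesis, and psbZ went from 8.76, 8.11 and 8.13 to 7.59, 7.13 and 7.43 (-0.95, adjusted p = 2.7e-05). Without nS replicate 1, 2 were called lower. In OX7.5 roots 19 of the 63 were lower and none was higher, beside 7.1% and 7.79% over all genes, with a median of -0.39.

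Of 32 serine carboxypeptidase-like genes, a list chosen after its values had been seen, 5 were lower and 2 higher, beside 7.2% and 9.21%. Their median of -0.09 was close to that of all genes.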
